A study of Mus musculus with 12 samples.

Results

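The interferon-induced genes described here are 44 listed symbols, of which 42 had a probe under that symbol on the array. A gene was kept when at least 1 of its probes had a detection p-value under 0.05, meaning that few of the array's negative control probes were as bright, on 3 or more of the 12 arrays. 39 members met this rule, among 15308 genes and unnamed probes that met it in all. Oas1a was detected on 0 arrays and Mx1 and Gbp6 on 1 array each, so these 3 fell short, and Ddx60 and Ifi44 were not analysed here. Of the 39, 22 were detected on all 12 arrays. 7 members (Stat2, Oas2, Oas3, Oasl1, Ifih1, Dhx58 and Ifi35) were detected on under 3 arrays of adipose tissue and passed mainly or wholly through the spleen arrays, so the 39 that passed are not a neutral sample of the 44.

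The arrays measured RNA of regulatory T cells (Tregs), the Foxp3-expressing T cells that restrain immune responses, taken from perigonadal white adipose tissue (PGWAT) and from spleen. All animals were C57BL/6 mice on a high fat diet, and all carried Foxp3-YFP-Cre, a Cre recombinase made under control of the Foxp3 gene and so active in Tregs. The control groups carried that allele alone, and the Tbet flox groups carried it together with Tbx21-flox, a conditional allele of the gene for the transcription factor T-bet. Each of the 4 groups had 3 arrays, made from 5 pg of amplified total RNA each. The labels used here give no age and do not say whether the 3 samples of a group came from separate animals or from pools, so p-values measure the spread between these samples, which may be partly technical.

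Interferons are secreted antiviral and immune signals. Type I interferons act through the receptor pair IFNAR1 and IFNAR2 and lead STAT2 and IRF9 to the interferon-stimulated response element (ISRE) in target promoters. Interferon-gamma, the product of Ifng, acts through IFNGR1 and IFNGR2 and on promoters that hold the gamma-activated site (GAS), and T-bet is known as an activator of Ifng in T cells.

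Promoter windows of 6 members are shown as examples, 1 window for each. Ifit1bl1 and Irf1 each have another window that is not shown. That of Ifit1bl1 holds 1 ISRE core, and that of Irf1 holds no match to either motif. Ifit3, Ifit1bl1, Oas3 and Stat2 were called in the tissue result below, and Irgm1 and Irf1 stood at a similar level on all arrays through the probes used. Ifit2, Irf9 and Dtx3l, also called below, are not shown, and their windows held no ISRE core as defined here. Each window runs from 250 bases before to 50 bases after a RefSeq transcript start, in build GRCm38.p6, written from 5′ to 3′ on the gene's own strand. Capitals mark a match to the ISRE core GAAANNGAAA or its reverse TTTCNNTTTC, where N is any base, and in Irf1 a match to the GAS pattern TTCNNNGAA.
Ifit3 (chr19:34583279-34583578, plus strand): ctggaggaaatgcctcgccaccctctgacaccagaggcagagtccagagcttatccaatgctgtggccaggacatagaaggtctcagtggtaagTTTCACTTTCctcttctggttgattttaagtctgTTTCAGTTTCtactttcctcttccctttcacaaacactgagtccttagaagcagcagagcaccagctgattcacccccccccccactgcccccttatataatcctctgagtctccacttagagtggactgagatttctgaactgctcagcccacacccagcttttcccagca
Ifit1bl1 (chr19:34601919-34602218, minus strand): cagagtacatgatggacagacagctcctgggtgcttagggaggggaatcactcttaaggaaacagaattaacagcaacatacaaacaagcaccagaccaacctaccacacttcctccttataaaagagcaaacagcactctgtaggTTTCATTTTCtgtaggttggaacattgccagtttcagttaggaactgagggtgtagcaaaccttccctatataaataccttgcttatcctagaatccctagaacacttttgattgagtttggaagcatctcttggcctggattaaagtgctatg
Oas3 (chr5:120777610-120777909, minus strand): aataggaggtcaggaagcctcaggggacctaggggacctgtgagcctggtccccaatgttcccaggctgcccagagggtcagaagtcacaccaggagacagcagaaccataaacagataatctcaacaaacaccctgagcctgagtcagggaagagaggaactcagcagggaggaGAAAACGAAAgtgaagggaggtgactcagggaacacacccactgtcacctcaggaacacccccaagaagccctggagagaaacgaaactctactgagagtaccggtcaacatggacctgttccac
Stat2 (chr10:128270248-128270547, plus strand): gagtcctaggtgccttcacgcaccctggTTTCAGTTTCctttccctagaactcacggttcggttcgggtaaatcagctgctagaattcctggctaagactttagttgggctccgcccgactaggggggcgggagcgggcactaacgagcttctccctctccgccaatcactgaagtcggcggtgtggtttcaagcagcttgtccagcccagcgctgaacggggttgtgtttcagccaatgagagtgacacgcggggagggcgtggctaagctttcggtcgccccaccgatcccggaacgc
Irgm1 (chr11:48871371-48871670, minus strand): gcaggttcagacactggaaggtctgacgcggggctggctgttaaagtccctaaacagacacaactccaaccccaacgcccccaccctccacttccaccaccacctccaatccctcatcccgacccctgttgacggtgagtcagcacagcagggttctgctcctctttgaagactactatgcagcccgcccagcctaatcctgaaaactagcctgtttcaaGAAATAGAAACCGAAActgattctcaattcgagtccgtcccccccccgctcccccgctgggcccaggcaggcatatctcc
Irf1 (chr11:53769764-53770063, plus strand): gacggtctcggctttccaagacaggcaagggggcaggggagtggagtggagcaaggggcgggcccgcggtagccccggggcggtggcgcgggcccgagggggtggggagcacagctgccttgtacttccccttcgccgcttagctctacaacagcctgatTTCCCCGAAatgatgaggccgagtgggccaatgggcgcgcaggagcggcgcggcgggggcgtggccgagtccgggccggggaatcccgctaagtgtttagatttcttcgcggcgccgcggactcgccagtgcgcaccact

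RefSeq windows were found for 32 of the 44 listed symbols. An ISRE core stood in 20 of these 32 genes (62.5%), against 1079 of 27025 genes in the whole RefSeq table (3.99%) and 3.44% of all windows of the same length. A GAS pattern stood in 10 of the 32 (31.2%), against 9.55% of all genes and 8.30% of all windows. Both motifs were searched on both strands, the GAS pattern being its own reverse complement, and neither motif can contain the other. The members are known interferon targets, so this share describes the list and not these arrays. In Ifit3, which encodes an antiviral RNA-binding protein of the IFIT family, 2 ISRE cores lay at positions -156 to -147 and -122 to -113 from the start. Irgm1, a GTPase of defence against intracellular microbes, had 2 overlapping cores between positions -30 and -15. A match is a string of letters and not a measured binding site, and a window without a match says only that these letters are not in it.

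**Figure D1:**
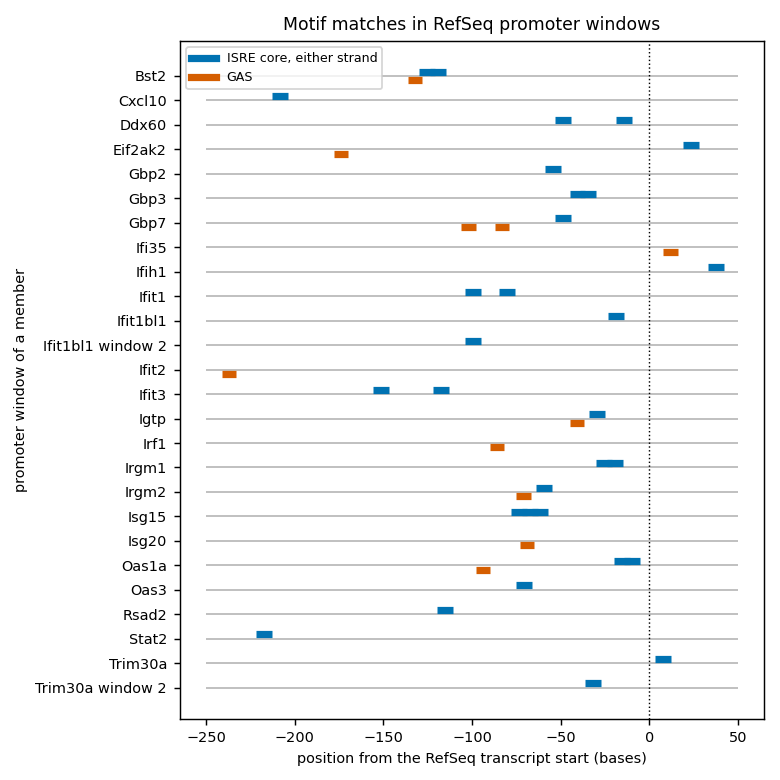
Positions of ISRE core matches (blue, above each line) and GAS matches (orange, below each line) in the RefSeq promoter windows of members that hold at least 1 match; the x axis gives bases from the transcript start, from 250 before to 50 after. ISRE cores appear in 20 of the 32 members with a window and GAS patterns in 10.

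The arrays differed more within PGWAT than within spleen, which sets how finely each tissue could be read. Pearson correlations between arrays of 1 group, across all features tested, ran from 0.774 to 0.805 for PGWAT control, from 0.824 to 0.872 for PGWAT Tbet flox and from 0.978 to 0.991 in spleen. Between 15274 and 20291 probes were detected per array. The median SD of the members on the log2 scale was 0.714 for the PGWAT control arrays and 0.537 for the Tbet flox ones, against 0.224 and 0.187 in the spleen groups. The fit therefore gave PGWAT arrays a weight of 0.313 and spleen arrays a weight of 3.20. Tbx21, the targeted gene, read 4.62, 7.40 and 4.96 on the PGWAT control arrays and 8.45, 4.86 and 4.54 on the Tbet flox ones (normalised intensity, log2). In spleen it read 4.80, 6.03 and 4.95 in control and 4.94, 4.98 and 4.71 in Tbet flox. The groups overlapped in both tissues, and whether its probe lies in the deleted part was not known from the files, so this gene does not check the genotype labels.

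Markers of several other cell types were higher on the PGWAT arrays than on the spleen arrays. The mean level of 13 macrophage and monocyte markers lay between 9.05 and 9.44 on the control arrays of PGWAT, between 6.57 and 8.68 on its Tbet flox arrays and between 6.16 and 6.80 in spleen. In the comparison of PGWAT with spleen, 10 of these 13 were higher in PGWAT in control mice, and 5 were higher and 1 lower in Tbet flox mice (limma, adjusted p under 0.05). Of 8 dendritic cell markers 5 were higher in PGWAT in each genotype, and of 7 stromal and endothelial markers 6 were higher in control and 4 in Tbet flox. None of 3 B cell markers or 7 markers of CD8 and NK cells passed, with medians of -0.30 and -0.05 in control and 0.70 and 1.30 in Tbet flox mice. Of 10 T cell markers 5 were lower in PGWAT in control, and 2 were lower and Cd28 higher in Tbet flox mice. Their mean lay between 8.01 and 8.72 on PGWAT control arrays, between 8.96 and 9.15 on PGWAT Tbet flox arrays and between 9.49 and 9.58 in spleen. Foxp3 itself read 5.44, 7.69 and 9.50 on the PGWAT control arrays, 7.62, 8.74 and 8.70 on the PGWAT Tbet flox arrays and between 8.39 and 8.91 in spleen. PGWAT control 1 was the array with the lowest Foxp3 level. All PGWAT arrays were on 1 chip and all spleen arrays on another, so tissue and chip cannot be told apart.

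The mean member level was 6.75 ± 0.307 (SD, n = 3) for control and 6.78 ± 0.264 for Tbet flox mice in PGWAT, and 7.48 ± 0.130 and 7.47 ± 0.126 in spleen. Between 27 and 32 members were detected on each PGWAT array, against 36 or 37 on each spleen array. Detection chose the members, and 7 of them passed mainly or wholly through spleen, so these values are a description that the choice of members partly sets. In these bulk samples, fewer cells of a type and less RNA per cell cannot be told apart.

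The comparison of tissues asks which members differ between Tregs of PGWAT and of spleen, within each genotype. In control mice 10 of the 39 members were lower in PGWAT and 0 were higher, at an adjusted p under 0.05 in limma's test over all 15308 features. Over all features 8.58% were lower and 6.52% higher. In Tbet flox mice 6 members were lower and 0 higher, against 4.96% of all features lower and 4.52% higher. Without quantile normalisation, scaling each array to its median instead, the split over all features in Tbet flox mice was 473 higher and 1347 lower in place of 692 and 759. At an unadjusted p under 0.05, 17 members were measured lower and 1 higher in control mice, beside 29.1% of all features in either direction, and 14 lower and 2 higher in Tbet flox mice, beside 24.4%. The median change of the members was -0.63 in control mice, where 30 of 39 were measured lower, and -0.54 in Tbet flox mice, where 28 were. The median over all features was -0.12 and -0.04, with 55.9% and 52.6% measured lower. The 39 include members that passed mainly or wholly through spleen, so the choice of members partly sets these counts and medians. The members called were 5 in both genotypes, which is 50% of the control list and 83.3% of the Tbet flox list. Oas3 and Stat2, among the members called, were kept through the spleen arrays and so had to stand lower in PGWAT. With probes required to be detected on 3 or more arrays of each tissue, a setting chosen after seeing the data, 31 members were left, of which 10 were lower in control (9.09% of all features lower) and 5 in Tbet flox mice (4.92%). Usp18, through another probe, was then called in both genotypes. Under this setting 24 of the 31 were measured lower in control mice, with a median of -0.69 beside -0.20 over all features. In Tbet flox mice 22 were, with a median of -0.50 beside -0.08. The counts rest on few arrays: without PGWAT control 3 the control count was 3 (Ifit3, Ifit1bl1 and Trim30a). Without PGWAT control 1 and PGWAT Tbet flox 3 together the counts were 11 and 5.

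**Figure D2:**
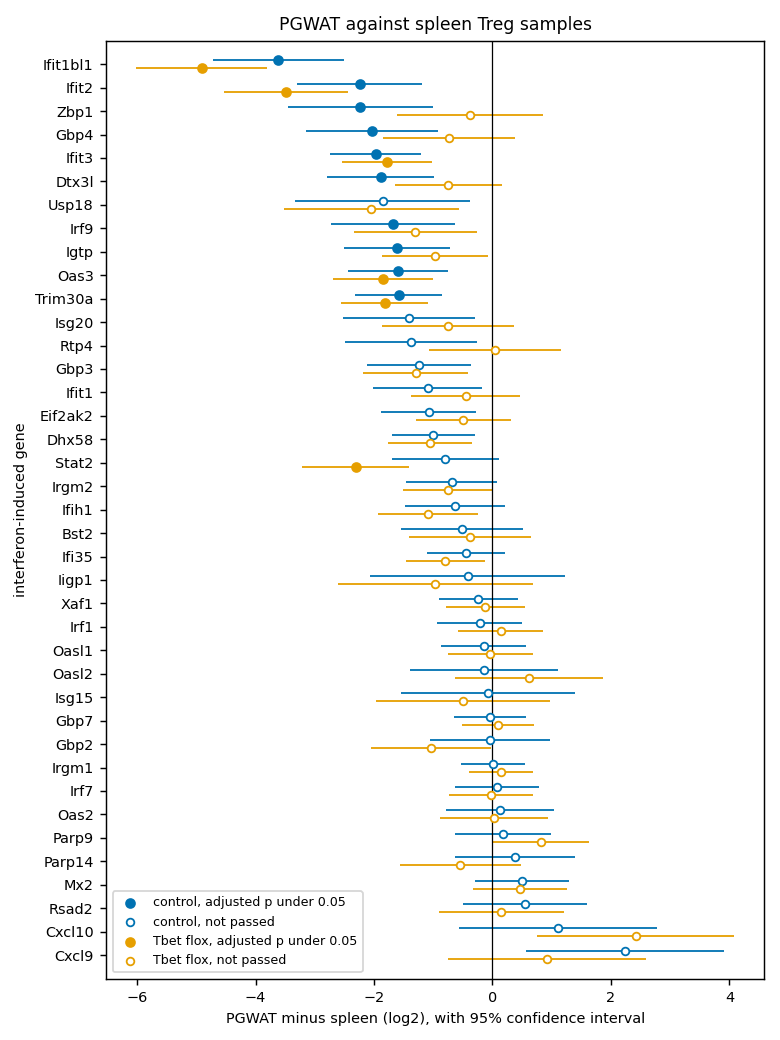
Change of each member between tissues (PGWAT minus spleen, log2) with its 95% confidence interval, in control (blue) and Tbet flox (orange) mice, ordered by the change in control mice; filled points passed an adjusted p under 0.05. For a gene not detected in a group the plotted change is limited by background. All filled points lie to the left of 0, and Cxcl9 and Cxcl10 are farthest to the right.

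The IFIT genes, whose proteins bind viral or foreign RNA and block its translation, had 3 of 4 members lower in PGWAT in each genotype. Ifit1bl1 read 4.76, 8.02 and 5.50 in PGWAT control against 9.63, 9.96 and 9.54 in spleen control. With the flox allele it read 4.66, 4.60 and 5.09 in PGWAT against 9.83, 9.65 and 9.60 in spleen. The tissues did not overlap in either genotype, and PGWAT control 2 stood above the other PGWAT arrays. The change was -3.62 ± 0.510 (log2, SE) in control mice (limma, adjusted p = 0.000494) and -4.91 ± 0.510 in Tbet flox mice (adjusted p = 8.52e-05). It was detected on 2 of 3 PGWAT control arrays and on 1 of 3 PGWAT Tbet flox arrays, so these changes rest partly on background. With each undetected array set at its lowest detected signal, the level was 11.6-fold lower in control and 26.3-fold lower in Tbet flox mice.

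Ifit2 read 7.40, 6.34 and 4.32 in PGWAT control and 8.21, 8.32 and 8.26 in spleen control. Its levels in Tbet flox mice were 5.95, 4.99 and 4.30 in PGWAT and 8.63, 8.47 and 8.59 in spleen. The spleen arrays lay close together and above all PGWAT arrays, which were spread widely. The change was -2.24 ± 0.486 in control mice (adjusted p = 0.00786) and -3.48 ± 0.486 in Tbet flox mice (adjusted p = 0.000735). Ifit2 was detected on 2 of 3 PGWAT arrays in each genotype. With the undetected array set at its lowest detected signal, the level was 3.88-fold lower in control and 9.63-fold lower in Tbet flox mice. Ifit3 read 6.94, 6.00 and 6.86 in PGWAT against 8.64, 8.71 and 8.38 in spleen of control mice, and 6.97, 6.23 and 7.47 against 8.61, 8.85 and 8.55 in Tbet flox mice. Its tissues were also apart, with changes of -1.97 ± 0.353 (adjusted p = 0.00250) and -1.78 ± 0.353 (adjusted p = 0.00761). A dimmer Ifit3 probe, detected on 7 arrays, did not pass, at -0.37 (adjusted p = 0.592) and -0.91 (adjusted p = 0.171). Ifit1 did not pass, at -1.10 ± 0.425 in control mice (adjusted p = 0.101) and -0.45 ± 0.425 in Tbet flox mice. Ifit1bl1 held its call when any 1 array was left out in both genotypes, Ifit3 in control mice and Ifit2 in Tbet flox mice. The call of Ifit2 in control mice was lost without PGWAT control 3 (adjusted p = 0.0542) and that of Ifit3 in Tbet flox mice without PGWAT Tbet flox 2 (adjusted p = 0.0732). Ifit3 and Ifit1bl1 have close copies in the mouse genome, Ifit3b and Ifit1bl2, and whether their probes also read these was not tested.

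Of the oligoadenylate synthetases, which sense double-stranded RNA and activate RNase L, Oas3 was lower in PGWAT in both genotypes. It was not detected on any of the 6 PGWAT arrays, where it read between 4.35 and 4.68. In spleen it was detected on all 6, at 6.07, 6.42 and 5.71 in control and 6.44, 6.21 and 6.04 in Tbet flox. Set against the lowest detected signal of each PGWAT array, Oas3 was at least 2.03-fold lower in PGWAT in control mice. In Tbet flox mice it was at least 2.46-fold lower. Such a bound takes the higher of that lowest signal and the gene's own level as the dim value on each array. The measured changes of Oas3 had adjusted p = 0.0151 in control and 0.0106 in Tbet flox mice (limma). An adjusted p printed with a bound, here and below, belongs to the measured change and not to the bound. Kept through the spleen arrays, Oas3 had to stand lower in PGWAT, so its direction is no separate result. The call was lost in control mice without PGWAT control 1 (adjusted p = 0.0629) or 3 (0.0624), and in Tbet flox mice without any 1 of the 3 PGWAT arrays (0.0584 to 0.0610). Oas2, Oasl1 and Oasl2 did not pass in either genotype, with changes between -0.15 and 0.61, and Oasl1 was not detected on any Tbet flox array.

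Among the transcription factors, the partners of type I interferon signalling Irf9 and Stat2 were each called lower in PGWAT in 1 genotype. Irf9 read 6.89, 8.96 and 7.33 in PGWAT control against 9.59, 9.53 and 9.09 in spleen control. It read 8.66, 6.76 and 7.79 in PGWAT Tbet flox against 8.86, 9.21 and 9.04 in spleen Tbet flox. Both PGWAT groups lay below their spleen groups, by 1.68 ± 0.483 in control mice (change -1.68, adjusted p = 0.0327) and with a change of -1.30 ± 0.483 that did not pass in Tbet flox mice (adjusted p = 0.112). The call of Irf9 was lost without PGWAT control 1 (adjusted p = 0.194) or 3 (0.138) and without spleen control 1 (0.0557) or 2 (0.0538). A dimmer probe of Irf9 passed in both genotypes in a fit of every kept probe, at -2.32 (adjusted p = 0.00633) and -2.43 (adjusted p = 0.00761).

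Stat2 read 4.78, 7.10 and 5.35 on the PGWAT control arrays and 4.83, 4.56 and 4.52 on the Tbet flox ones, where it was not detected on any array. Its spleen levels were 6.55, 6.36 and 6.72 in control and 7.01, 7.09 and 6.75 in Tbet flox. PGWAT control 2 reached the level of the spleen arrays, and the other 5 PGWAT arrays lay below all of them. Stat2 in Tbet flox mice was at least 4.04-fold lower in PGWAT, and its measured change there had an adjusted p of 0.00464 (limma). Kept mainly through the spleen arrays, Stat2 had to stand lower in PGWAT of these mice. The change of Stat2 in control mice was -0.80 ± 0.419 (adjusted p = 0.230). Irf1, an early target of interferon-gamma, read between 10.41 and 11.42 on all 12 arrays, with tissue changes of -0.22 ± 0.331 in control and 0.14 ± 0.331 in Tbet flox mice. Its dimmer probes changed by between -0.39 and 0.17 in control and between -0.93 and 0.25 in Tbet flox mice, and none passed. Irf7, a driver of type I interferon transcription, lay between 4.34 and 5.38 and was detected on 7 of 12 arrays.

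Zbp1, a sensor of Z-form nucleic acid, read 6.77, 9.73 and 7.37 in PGWAT control against 10.35, 10.35 and 9.86 in spleen control. Its Tbet flox levels were 10.31, 8.48 and 8.88 in PGWAT and 9.78, 9.69 and 9.33 in spleen. The tissues were apart in control mice and overlapped in Tbet flox mice. The change was -2.23 ± 0.568 in control mice (adjusted p = 0.0181), lost without PGWAT control 1 (0.133) or 3 (0.0946), and -0.38 ± 0.568 in Tbet flox mice (adjusted p = 0.751). A dimmer Zbp1 probe passed in both genotypes in the fit of every kept probe, at -2.30 (adjusted p = 0.00359) and -2.12 (adjusted p = 0.00923), and another passed in neither, at -0.87 and -0.14. The other sensors, Eif2ak2, Ifih1 and Dhx58, which bind double-stranded RNA, did not pass, and all were measured lower in PGWAT in both genotypes, with changes between -1.09 and -0.49. Ifih1 and Dhx58 were not detected on any PGWAT control array, so their changes there are limited by background. Both were detected on 1 of 3 PGWAT Tbet flox arrays and on all spleen arrays. They were thus kept through spleen, and that choice largely set their direction.

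The interferon-inducible GTPases disrupt the vacuoles of intracellular microbes. Of the guanylate-binding proteins Gbp4 was lower in PGWAT in control mice. It read 8.39, 8.84 and 5.91 in PGWAT control against 9.56, 9.68 and 10.01 in spleen control, and 9.46, 9.33 and 8.73 in PGWAT Tbet flox against 10.14, 9.89 and 9.68 in spleen Tbet flox. PGWAT control 3 stood far below the other arrays. The change was -2.04 ± 0.515 in control mice (adjusted p = 0.0176), which was lost without PGWAT control 3 (adjusted p = 0.132), and -0.73 ± 0.515 in Tbet flox mice (adjusted p = 0.428). Gbp3 did not pass, at -1.24 ± 0.409 (adjusted p = 0.0580) and -1.30 ± 0.409 (adjusted p = 0.0645), and its groups did not overlap between tissues in either genotype. The brightest Gbp7 probe changed by -0.04 and 0.09, and a dimmer one passed in control mice, at -1.82 (adjusted p = 0.0206).

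Of the immunity-related GTPases, Igtp was lower in PGWAT in control mice. Its levels there were 8.20, 7.27 and 7.62 against 9.36, 9.55 and 9.03 in spleen. The Tbet flox arrays read 8.86, 8.45 and 7.79 in PGWAT and 9.67, 9.20 and 9.14 in spleen. PGWAT lay below spleen in both genotypes, with a change of -1.62 ± 0.414 in control mice (adjusted p = 0.0187), lost without PGWAT control 2 (0.0965) or 3 (0.0693), and of -0.97 ± 0.414 in Tbet flox mice (adjusted p = 0.168). Irgm1, which holds other GTPases of this family inactive on host membranes, read between 10.93 and 11.47 on all 12 arrays. Its tissue changes were 0.01 ± 0.253 in control and 0.14 ± 0.253 in Tbet flox mice, with 95% confidence intervals that ended at 0.56 and 0.69. The changes of the dimmer Irgm1 probes were -0.66 and -0.70 in control and -1.88 and -1.85 in Tbet flox mice, and none of these passed.

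Dtx3l, a ubiquitin ligase that works in a complex with PARP9, read 7.49, 7.59 and 6.13 in PGWAT control against 9.22, 9.01 and 8.64 in spleen control. The Tbet flox levels were 7.95, 8.38 and 8.62 in PGWAT and 9.32, 8.99 and 8.90 in spleen. The tissues did not overlap in either genotype, and the change was -1.89 ± 0.419 in control mice (adjusted p = 0.00896) and -0.75 ± 0.419 in Tbet flox mice (adjusted p = 0.299). Without PGWAT control 3 the control call was lost (0.0698), and the change of a dimmer Dtx3l probe was -0.04 and -0.24. Parp9 and Parp14 did not pass through their brightest probes. For Parp14 that probe changed by 0.38 and -0.54, while a dimmer one passed in both genotypes, at -1.95 (adjusted p = 0.00441) and -1.59 (adjusted p = 0.0210). Trim30a, which restrains inflammatory signalling, read 7.56, 7.60 and 7.28 in PGWAT against 8.90, 9.14 and 9.16 in spleen of control mice, and 6.51, 8.23 and 7.49 against 9.35, 9.15 and 9.19 in Tbet flox mice. Every spleen array was above every PGWAT array, with changes of -1.58 ± 0.343 (adjusted p = 0.00778) and -1.82 ± 0.343 (adjusted p = 0.00563). The control call held without any 1 array, and the Tbet flox call was lost without PGWAT Tbet flox 1 (adjusted p = 0.0622).

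**Figure D3:**
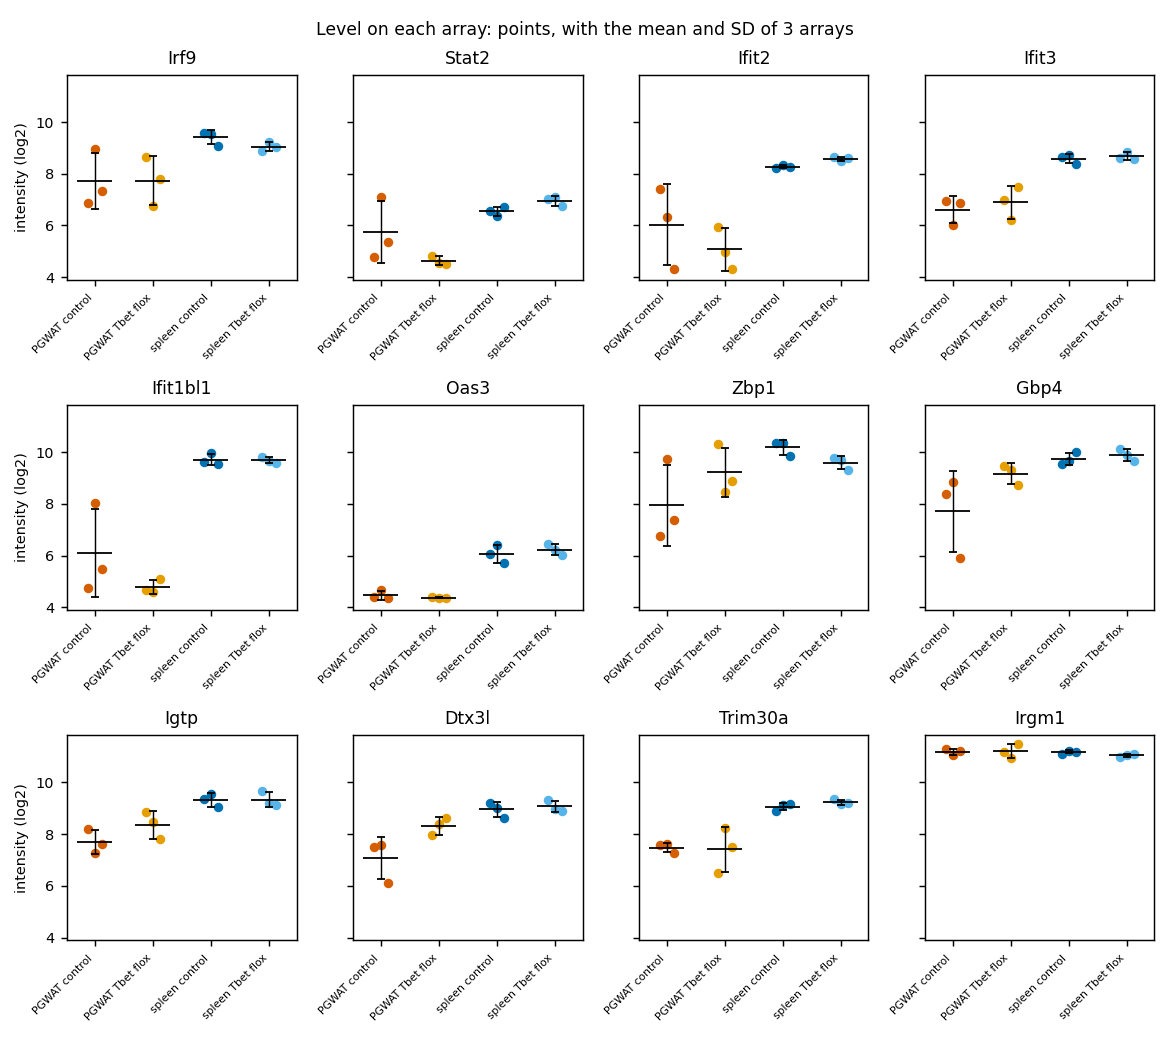
Normalised intensity (log2) on each array of the 11 members called in a tissue comparison and of Irgm1; points are arrays, long lines the mean and bars the SD of 3 arrays, and all panels share 1 axis. Ifit3, Ifit1bl1, Oas3 and Trim30a show both PGWAT groups below both spleen groups with no overlap, and Irgm1 is level.

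The chemokines, which draw CXCR3-bearing T cells, were the members measured higher in PGWAT by the largest amounts. Cxcl9 read 7.78, 5.77 and 7.24 in PGWAT control and was not detected on the 3 spleen control arrays, at 4.55, 4.81 and 4.71. Bounded as for Oas3, its mean was 4.39-fold higher in PGWAT in control mice, a difference that did not pass (adjusted p = 0.0691). Among Tbet flox mice it read 8.57, 5.40 and 4.39 in PGWAT and 5.90, 4.87 and 4.83 in spleen, so the tissues overlapped. Cxcl10 read 7.03, 8.89 and 6.48 in PGWAT against 6.31, 7.09 and 5.69 in spleen of control mice, and 8.41, 9.64 and 7.92 against 6.76, 6.12 and 5.84 in Tbet flox mice. Its change was 1.11 ± 0.772 in control mice (adjusted p = 0.379) and 2.42 ± 0.772 in Tbet flox mice, where the tissues did not overlap but the change did not pass (adjusted p = 0.0674). A dimmer probe of Cxcl10 passed in Tbet flox mice in the fit of every kept probe, at 2.59 (adjusted p = 0.00397). Macrophages are a known source of both chemokines, and macrophage markers were higher on these arrays, as given above. Their part in the tissue results, of the chemokines and of the other members, was not tested.

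The remaining members did not pass in either genotype. Isg15, the ubiquitin-like modifier of antiviral proteins, had tissue changes of -0.08 ± 0.682 in control and -0.50 ± 0.682 in Tbet flox mice. Usp18, which removes ISG15 and damps type I interferon signalling, read 8.21, 4.32 and 4.59 in PGWAT control and between 7.21 and 7.70 in spleen. PGWAT control 1 stood above all spleen arrays and the other control arrays far below, and the change was -1.85 ± 0.685 (adjusted p = 0.0864). A dimmer probe of Usp18 passed in both genotypes, at -1.75 (adjusted p = 0.0127) and -2.25 (adjusted p = 0.00483). Mx2, of the Mx GTPase family, was not detected in spleen and was detected on 3 PGWAT arrays. RefSeq lists Mx2 as a transcribed pseudogene. Of the 18 members with several kept probes, 4 in control and 5 in Tbet flox mice had a probe that moved opposite to the one used.

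Grouped by promoter, 18 members tested held an ISRE core in a window, and 5 of them were lower in PGWAT in each genotype. Of all features, 8.58% were lower in control and 4.96% in Tbet flox mice. The medians of the 18 were -0.75 in control and -0.86 in Tbet flox mice. Oas3, called in both genotypes, and Stat2, called in Tbet flox mice, were kept through the spleen arrays and so had to stand lower. The 11 members with a window but no core had 3 and 1 lower, with medians of -0.24 and -0.12. Ifih1 of the 18 and Ifi35 of the 11 were also kept mainly through spleen, which bears on these medians. In control mice the share called was similar in both sets. The promoters of Ifit3, Ifit1bl1, Oas3 and Stat2 printed above are of the first kind, and so is that of Irgm1, which did not pass. Those of Ifit2, Irf9 and Dtx3l are of the second kind. These counts are a description, since several members are neighbours that share sequence, such as the 4 Ifit genes on chromosome 19.

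The comparison of genotypes asks how these genes differ between mice with and without the conditional T-bet allele, within a tissue. In PGWAT 0 of the 39 members passed (limma, smallest adjusted p = 0.495), 1 had an unadjusted p under 0.05 (9.94% of all features did), and 0.209% of all features passed. In spleen 0 passed (smallest adjusted p = 0.0719), 4 had an unadjusted p under 0.05 (17.9% of all features did), and 1.76% of all features passed. The median change, Tbet flox minus control, was -0.03 in PGWAT and 0.02 in spleen, beside 0.04 and -0.01 over all features. The median half-width of the 95% confidence intervals was 1.22 in PGWAT and 0.382 in spleen, which corresponds to 2.33-fold and 1.30-fold. Groups that did not overlap were seen for 2 members in PGWAT, against 14.5% of all features, and for 10 in spleen, 5 in each direction, against 23.1%. Macrophage markers were also measured lower in PGWAT Tbet flox than in PGWAT control for 12 of 13, with Ccr2 measured higher and 0 passing. Treg markers were measured higher in PGWAT Tbet flox for 9 of 10, with a median of 0.89 and 0 passing. In spleen 8 of the 13 macrophage markers were measured lower in Tbet flox, with a median of -0.64, and Csf1r passed as lower. Of 7 markers of CD8 and NK cells, Nkg7 passed as lower in spleen Tbet flox (limma, adjusted p under 0.05). Of 4 mast cell markers Cpa3, detected on 1 of 3 PGWAT control arrays, was higher in PGWAT Tbet flox, by 2.81 ± 0.487 (adjusted p = 0.0404). The part of these cells in the member values was not tested.

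**Figure D4:**
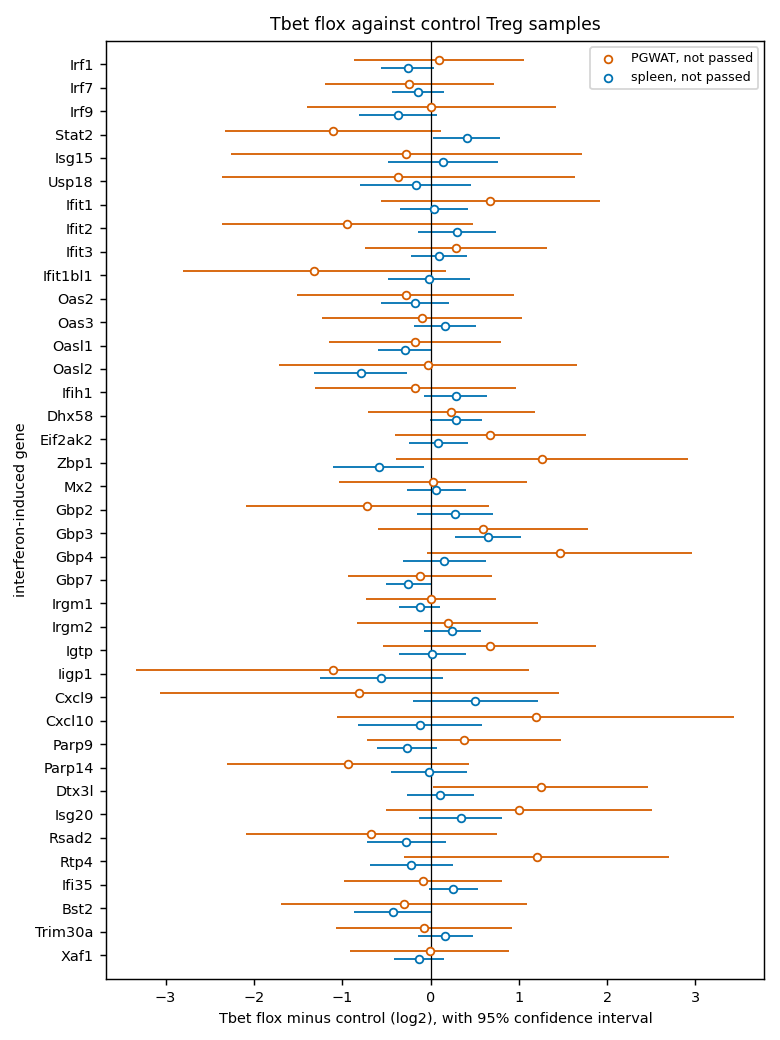
Change of each member with genotype (Tbet flox minus control, log2) with its 95% confidence interval, in PGWAT (orange) and spleen (blue), in order of role; open points did not pass an adjusted p of 0.05. No point is filled, and the PGWAT intervals are 3.20 times as wide as those in spleen, a ratio set by the weight of each tissue.

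In spleen the members with the smallest p-values were Gbp3 and Oasl2, and they moved in opposite directions. Gbp3, a guanylate-binding protein, read 8.58, 8.59 and 8.51 in control and 9.49, 9.24 and 8.90 in Tbet flox. All Tbet flox arrays were above all control arrays, and the change of 0.65 ± 0.173 did not pass (adjusted p = 0.0719). Oasl2, a ubiquitin-like relative of the oligoadenylate synthetases, read 7.05, 7.37 and 6.69 in control and 6.44, 6.37 and 5.92 in Tbet flox. Its change of -0.79 ± 0.244, again without overlap, did not pass (adjusted p = 0.110). A dimmer probe changed by 0.84 for Gbp3 and by -0.04 for Oasl2, and neither passed. Zbp1 changed by -0.59 ± 0.240 (adjusted p = 0.217) and Stat2 by 0.41 ± 0.177 (adjusted p = 0.245) in the levels given above, both short of the threshold. Bst2, the tetherin that holds virus at the cell surface, read 7.04, 7.52 and 6.85 in control and 6.45, 6.74 and 6.94 in Tbet flox, a difference of -0.43 ± 0.201 (adjusted p = 0.286). Iigp1, an immunity-related GTPase, read 7.73, 8.09 and 6.89 in control and 7.71, 6.94 and 6.37 in Tbet flox, a difference of -0.56 ± 0.322 (adjusted p = 0.393). In spleen, 8 of the 18 members with several kept probes had a probe that moved opposite to the one used, among them Zbp1 and Iigp1.

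In PGWAT the member with the smallest p-value was Dtx3l, at 1.25 ± 0.565 (adjusted p = 0.495). Its 3 Tbet flox arrays were above its 3 control arrays in the levels given above. Gbp4 differed by 1.46 ± 0.696 (adjusted p = 0.518) and Ifit1bl1 by -1.31 ± 0.688 (adjusted p = 0.570). Stat2 was not detected in PGWAT Tbet flox or on PGWAT control 1. Bounded as for Oas3, its mean was 1.75-fold lower in Tbet flox, which did not pass (adjusted p = 0.556). For each of these 3 genes 1 control array stood far from the other control arrays, and the groups overlapped. Rtp4, a chaperone that also restrains RNA viruses, read 7.06, 5.18 and 4.58 in control and 7.43, 5.90 and 7.10 in Tbet flox, a difference of 1.20 ± 0.696 (adjusted p = 0.625). Parp14, an ADP-ribosyltransferase, read 7.82, 8.40 and 9.51 in control and 7.75, 7.47 and 7.70 in Tbet flox, with no overlap and a difference of -0.94 ± 0.635 (adjusted p = 0.709). Of the 18 members with several kept probes, 10 had a probe that moved with genotype in PGWAT opposite to the one used. Among them were Dtx3l (-0.34), Rtp4 (-0.60) and Parp14 (0.06 and 0.21).

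Members of the other roles did not pass between genotypes either. Isg15 read 6.67, 8.19 and 4.89 in PGWAT of control against 6.38, 6.50 and 6.05 of Tbet flox mice, and lay between 5.92 and 7.05 on the spleen arrays. Both extremes were control arrays, so its genotypes overlapped in both tissues. Usp18 in PGWAT read 6.94, 4.38 and 4.71 in Tbet flox mice beside the control levels above, a difference of -0.36 ± 0.924 (adjusted p = 0.959), with 1 bright array in each group. Cxcl10 differed by 1.19 ± 1.04 in PGWAT in the levels given above (adjusted p = 0.806). Cxcl9 read 5.90, 4.87 and 4.83 in spleen of Tbet flox mice, all above the control levels there, where it was not detected. Bounded as for Oas3, the mean of Cxcl9 was 1.32-fold higher in Tbet flox, a difference that did not pass (adjusted p = 0.455). Ifit2 read 8.63, 8.47 and 8.59 in spleen of Tbet flox mice, also all above the control levels, with a difference of 0.30 ± 0.205 (adjusted p = 0.49). Oas2 read 6.50, 4.44 and 4.42 in PGWAT of control and 5.28, 4.37 and 4.86 of Tbet flox mice, and the groups overlapped. Parp9, the partner of Dtx3l, read 5.02, 5.15 and 5.19 in spleen of control and 4.95, 4.79 and 4.82 of Tbet flox mice. Its groups did not overlap, while its difference of -0.27 ± 0.159 did not pass (adjusted p = 0.413). Mx2, with 5.61, 5.06 and 4.39 and 6.15, 4.63 and 4.35 in PGWAT, differed by 0.03 ± 0.495 (adjusted p = 0.996).

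Whether the genotype effect differed between the tissues was tested for each member as the difference of the effects. 0 of 39 members passed (limma, smallest adjusted p = 0.381, 2 at an unadjusted p under 0.05), beside 0.0719% of all features that passed and 10.5% at the unadjusted p. Those 2 were Stat2 (adjusted p = 0.381), for which no size is given because it was not detected in PGWAT Tbet flox, and Zbp1, with a difference of 1.85 ± 0.803 (adjusted p = 0.448). The median half-width of the intervals was 1.28. For this difference, 11 of the 18 members with several kept probes had a probe that moved opposite to the one used. Through their brightest probes Dtx3l, Gbp4, Zbp1, Igtp and Irf9 passed between tissues in control mice alone and Stat2 in Tbet flox mice alone, and for none of these 6 did the difference between genotypes itself pass.

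Upstream of the members, Ifng was lower in Tbet flox than in control Tregs of spleen. It read 7.10, 7.84 and 7.11 in control spleen against 5.51, 4.82 and 5.32 in Tbet flox spleen, and 9.52, 9.97 and 9.02 in control PGWAT against 6.81, 6.21 and 4.83 in Tbet flox PGWAT. The genotypes did not overlap in either tissue. The change was -2.13 ± 0.233 in spleen (adjusted p = 0.00253) and -3.55 ± 0.744 in PGWAT, where it did not pass (adjusted p = 0.106) and was detected on 2 of 3 Tbet flox arrays. Without the tissue weights the spleen call was lost (adjusted p = 1.00) and the PGWAT change passed (adjusted p = 0.00453). Between tissues Ifng was higher in PGWAT in control mice, by 2.15 ± 0.551 (adjusted p = 0.0187), lost without PGWAT control 1 (0.0675) or 2 (0.0888) and with the mean of its probes (0.0507), and the change in Tbet flox mice was 0.73 ± 0.551 (adjusted p = 0.459). Of 17 interferon ligands listed, 16 had a probe, and Ifng, Ifnab and Ifnz were the ones bright enough to be tested.

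The receptors did not change with genotype at the threshold. Of 9 receptors, kinases and STATs tested, Ifngr1 was higher in PGWAT in both genotypes, by 1.92 ± 0.262 in control (adjusted p = 0.000379) and 1.64 ± 0.262 in Tbet flox mice (adjusted p = 0.00200). It read 10.34, 10.40 and 11.00 on PGWAT control arrays, 10.10, 10.38 and 10.46 on PGWAT Tbet flox arrays and between 8.58 and 8.71 in spleen, with a wide gap between the tissues. Ifnar1 was higher in PGWAT in Tbet flox mice, by 1.66 ± 0.430 (adjusted p = 0.0287), lost without PGWAT Tbet flox 2 (0.101) or 3 (0.211) and with median scaling (0.0619), while Ifnar2 and Ifngr2 did not pass in any comparison. Ifngr1 and Ifnar1 are also found on macrophages, whose markers were higher in PGWAT, and their part in this was not tested. Of 10 inhibitors of signalling Ptpn6 was lower in PGWAT in control and Cish higher in Tbet flox mice, and Socs1, the feedback inhibitor of JAK kinases, did not pass in any comparison, with genotype changes of 1.26 ± 0.575 in PGWAT and -0.43 ± 0.180 in spleen.

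Other lists linked to interferon also held genes that were lower in PGWAT. Of 14 genes of class I antigen presentation 4 were lower in PGWAT in control mice (Psmb9, Tap1, Nlrc5 and Psmb8) and 2 in Tbet flox mice (Tap1 and Psmb8), and 0 were higher. Their median change was -0.64 and -0.46, beside -0.12 and -0.04 over all features. Of all features, 8.58% were lower and 6.52% higher in PGWAT in control mice. In Tbet flox mice 4.96% were lower and 4.52% higher. Tap1, a subunit of the peptide transporter, changed by -1.70 ± 0.322 (adjusted p = 0.00361) and -1.76 ± 0.322 (adjusted p = 0.00483). Of 11 genes of nucleic acid sensing, Ikbke was lower in both genotypes, Sting1 in control and Ddx58 in Tbet flox mice. Ikbke was detected on 0 of 3 PGWAT control and 1 of 3 PGWAT Tbet flox arrays, so it was kept mainly through spleen. Among 7 other interferon regulatory factors Irf5, which macrophages use, was higher in both genotypes, Irf3 lower in control and Irf4 higher in Tbet flox mice.

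Of 55 further interferon-induced genes outside the 39, 8 were lower and 7 higher in PGWAT in control mice, with a median of -0.44. In Tbet flox mice 12 were lower and 3 higher, with a median of -0.31. The shares over all features were 8.58% lower and 6.52% higher in control, and 4.96% lower and 4.52% higher in Tbet flox mice. Ddx58 of the sensing list and Socs1 of the inhibitors are also among these 55. Trim21, the cytosolic antibody receptor, changed by -3.23 ± 0.352 (adjusted p = 6.89e-05) and -3.15 ± 0.352 (adjusted p = 0.000143). In contrast the membrane proteins Ifitm1 and Ifitm2, which block virus entry, were higher in PGWAT, Ifitm1 by 4.05 ± 0.459 (adjusted p = 9.46e-05) and 2.68 ± 0.459 (adjusted p = 0.00327), and Ifitm2 by 4.14 ± 0.506 and 2.76 ± 0.506. With genotype in spleen, Ccl5 was lower in Tbet flox by 0.90 (change -0.90 ± 0.193, adjusted p = 0.0390), as was Trim25 of the sensing list (change -0.66 ± 0.143, adjusted p = 0.0392). Both calls were lost without weights (adjusted p = 1.00), with the spleen groups alone (0.0806 and 0.0752), and without any 1 of the spleen arrays but control 3 (0.0529 to 0.210). In PGWAT 0 genes of any of these lists passed with genotype, the smallest p-value of the 55 being that of Ddx58.

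Over the 12 arrays, Ifit1bl1 was the member whose group means differed most. The genes whose levels were most like it were Gm5129 (Pearson r = 0.984), Lta (0.984), Map7 (0.972), Mtf2 (0.970) and Stambpl1 (0.970), and none of these is a member. All 12 points share the split into 2 tissues on 2 chips, so the values describe that split.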

How the data were processed

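RNA of Tregs was hybridised to 12 Illumina bead arrays, 3 in each of 4 groups taken from the labels. The authors deposited bead-averaged intensity values without background subtraction, with a detection p-value per probe, per the file headers. Per the labels' protocols 5 pg of total RNA was amplified, and the arrays were read with GenomeStudio, per the submitters' processing notes (version not given in the sources used here). The deposited processed table, with intensity values that have nearly the same distribution on all arrays, served as an alternative; its scale is linear by its values, and its processing steps are not given in the sources used here.

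In limma 3.58.1 under R 4.3.3, the intensities were background-corrected with negative controls inferred from the detection p-values, quantile-normalised with an offset of 16 and put on the log2 scale (neqc). Probes were kept at a detection p under 0.05 on 3 or more arrays, and a gene took its brightest kept probe. Of 45281 probes 34885 had 1 gene symbol in the platform annotation, 18 several and 10378 none. The 15308 features were 10882 named genes and 4426 unnamed probes. A model with 1 mean per group was fitted over all 12 arrays, with 1 weight per tissue (arrayWeights), and moderated with eBayes. P-values were adjusted by Benjamini-Hochberg over all features, with a threshold of 0.05. The weights were used because PGWAT arrays varied more than spleen arrays. The fit was tested on simulated data.

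The members, the gene lists and the tests were chosen with earlier results of these data known. Values in every array are given for each member past the threshold and, per role, for members with the smallest p in a genotype comparison. Non-members named are genes of fixed pathway lists that passed, or key pathway genes. Same-numbered arrays did not deviate together: correlations of their deviations from the group means lay between -0.199 and 0.0757 (4 comparisons of 3 pairs), so the numbers were not taken as pairs. The number of arrays limits the precision. Promoter windows came from RefSeq (GRCm38.p6), in which all 44 symbols were listed and 32 had a window. Alternatives tried were the normalisation, background correction, offset, weights, filter, probe choice, replicate block and leaving out arrays.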

Additional observations from a re-analysis of the deposited data

How the results depend on the processing

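Over the 39 members, 5 comparisons and 25 alternatives, no value called before or after changed its sign. Of 397 values of members called, 368 stayed called and 29 did not, and of 4379 values not called 64 were called under an alternative, 30 of them between tissues in control, 30 in Tbet flox mice and 4 with genotype in spleen. In spleen the number of members changed by genotype was 1 in place of 0 without background correction, in the authors' processed table and with an offset of 50 (Gbp3 each time), and 1 with 1 weight per array (Oasl2). In PGWAT and for the difference of the effects it was 0 under every alternative. The tissue count in control mice ran from 3 to 12 when single arrays were left out, the lowest without PGWAT control 3, and from 8 to 14 otherwise. In Tbet flox mice it ran from 4 to 8 when single arrays were left out. It was 10 with 1 weight per array and 10 with the mean of the kept probes, each time 9 lower and Cxcl10 alone higher. Cxcl10 was also the 1 member called higher there in the authors' processed table, without weights, with the compared groups alone and with the replicate block. The same held without spleen control 2, spleen control 3 or spleen Tbet flox 1. In control mice Cxcl9 was the 1 member called higher with the compared groups alone and without PGWAT Tbet flox 1 or spleen Tbet flox 1. The median tissue change in control mice was -0.28 without background correction, -0.31 in the authors' processed table and -0.40 with an offset of 50, settings that compress dim signals. It ran from -0.72 to -0.59 over left-out arrays. In Tbet flox mice it was -0.88 with median scaling, where the median over all features moved from -0.04 to -0.28, and ran from -0.87 to -0.50 over left-out arrays, the lowest without PGWAT Tbet flox 1. The median difference of the genotype effects ran from -0.15 to 0.19, the highest without PGWAT control 1. With the replicate block the counts were 0, 0, 12, 9 and 0 for genotype in PGWAT, genotype in spleen, tissue in control, tissue in Tbet flox and the difference. The cause of these moves was not tested.

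Over all features, the count called with genotype in PGWAT was 32, against 347 higher and 233 lower without weights and 5 with the replicate block. In spleen it was 269, against 0 without weights, 281 higher and 368 lower with 1 weight per array, 10 with the spleen groups alone and 16 with the replicate block. Levels near background limit Oas3, Stat2, Ifit1bl1, Ifit2, Cxcl9 and Mx2 to bounds or near-bounds on the dim side.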
